A study of Mus musculus with 7 samples.

Results

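Hemoglobin and other red blood cell transcripts were followed in RNA sequencing libraries of 2 sorted cell populations from the olfactory epithelium of young mice. The set was a fixed list of 8 erythroid genes matched by symbol, and no measured value entered that rule. Of these 8 genes, 7 had a row among the 54532 genes of the deposited tables: the α-globin genes Hba-a1 and Hba-a2, the adult β-globin genes Hbb-bs and Hbb-bt, the heme synthesis gene Alas2, the membrane transporter gene Slc4a1 and the carbonic anhydrase gene Car1. Ahsp, which encodes a chaperone of free α-globin, was not analysed here. Mature olfactory sensory neurons had been sorted by fluorescence from mice of genotype OMP-GFP at postnatal days 2, 7 and 16 (P2, P7 and P16, 3 libraries), and intermediate progenitor cells from Neurog1-GFP mice at P3, P7, P9 and P16 (4 libraries). The series text describes each profile as made from pooled purified cells, each age had 1 library per population, and the ages therefore served as the replicates of a population. Strain and sex are not among the labels, nor is whether libraries came from separate animals, so the p-values reflect only library-to-library spread, age differences included. The mouse line changed together with the population, and these cannot be told apart.

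A red blood cell carries oxygen on hemoglobin, a tetramer of α-globin and β-globin chains that each hold a heme group. Erythroid precursors in the bone marrow, and in the liver and spleen around birth, transcribe the globin genes at very high levels, and reticulocytes released into the blood still carry that messenger RNA after the nucleus is lost. Alas2 is the X-linked, erythroid form of the enzyme that starts heme synthesis, Slc4a1 is band 3, the anion exchanger that also anchors the red cell skeleton to the membrane, and Car1 converts carbon dioxide to bicarbonate. Globin transcripts at low levels have also been reported from neurons. Inbred mouse strains differ in their adult β-globin haplotype, and the reference genome carries the single haplotype, from which Hbb-bs and Hbb-bt take their names.

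The libraries held between 24203965 and 25930727 reads on genes. All 10 listed mature neuron markers were detected in every library. Of these, 9 were higher in mature neurons (edgeR adjusted p under 0.05), against 28.8% of all tested genes. The exception was Omp itself, at 1066 to 1630 TPM (length-scaled transcript abundance) in mature neurons and 1323 to 2371 TPM in progenitors. Neurog1, the proneural factor for which the progenitor line is named, stood at 0.84 to 1.85 TPM in mature neurons and 292 to 698 TPM in progenitors. The P16 mature neuron library carried the most RNA of leukocyte genes, given below beside the results it touches.

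The globin genes come in near-identical pairs, which decides how far single members can be read. In GENCODE M21, Hba-a1 lies on chromosome 11 at 32283511 to 32284465 and Hba-a2 at 32296489 to 32297298, both on the plus strand (GRCm38, the assembly also called mm10). Hbb-bs lies on chromosome 7 at 103826534 to 103828096 and Hbb-bt at 103812524 to 103813996, both on the minus strand. The 2 α-globin coding sequences are 426 bases long without the stop codon and differ at 1 base, and the 2 β-globin coding sequences are 441 bases long and also differ at 1 base. The stretches that hold these differences run from base 351 to 410 of the α-globin and from base 382 to 441 of the β-globin coding sequence, with the differing base in capitals. They are given because this base is the only coding difference between the genes of a pair.
Hba-a1: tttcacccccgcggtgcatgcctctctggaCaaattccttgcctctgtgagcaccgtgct
Hba-a2: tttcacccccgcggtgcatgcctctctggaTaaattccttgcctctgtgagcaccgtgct
Hbb-bs: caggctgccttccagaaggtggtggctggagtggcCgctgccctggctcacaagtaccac
Hbb-bt: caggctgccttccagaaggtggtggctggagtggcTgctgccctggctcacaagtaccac
Of all 50-base windows of the Hba-a1 transcript, 67.5% occur unchanged in the Hba-a2 transcript, and 86.9% of those of Hba-a2 occur in Hba-a1. For Hbb-bs and Hbb-bt the shares are 65.8% and 58.3%. The deposited read counts keep multi-mapping reads apart from the genes, so a count for 1 gene of a pair rests on the part of its transcript that the other lacks. The RSEM TPM values of the same libraries are scaled for transcript length and were used for levels. The split of a pair between its members is uncertain on either scale. It also enters the summed TPM of a pair to some extent, since the transcripts differ in length (699 bases for Hba-a1 and 554 for Hba-a2, 628 for Hbb-bs and 703 for Hbb-bt).

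Hemoglobin RNA was present in all 7 libraries and reached its highest level at P16 in both populations. The summed TPM of the 4 globin genes was 367 at P2, 437 at P7 and 3007 at P16 in mature neurons, and 192 at P3, 814 at P7, 520 at P9 and 1355 at P16 in progenitors. The P16 level was 8.19 times the P2 level in mature neurons and 7.08 times the P3 level in progenitors. The order within progenitors was not steady, since the P7 library stood 1.56 times above the P9 library. In mature neurons P2 and P7 differed by a factor of 1.19. In these pools a change in the number of cells of a type and a change in RNA per cell cannot be told apart.

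In the P16 mature neuron library globin RNA made up 0.301% of all TPM, and in the P16 progenitor library 0.136%. Among all genes ordered by TPM, Hbb-bs stood in mature neurons at rank 1441 at P2, 1160 at P7 and 77 at P16. In progenitors it stood at rank 3088 at P3, 614 at P7, 979 at P9 and 271 at P16. At P16 the summed globin TPM equalled 184% of the Omp level in mature neurons and 58.8% of it in progenitors. Omp itself was lower in that mature neuron library (1630 TPM) than in the progenitor one (2306 TPM), which widens this contrast.

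The member levels ran in parallel. Hba-a1 stood at 75.2, 99.4 and 591 TPM at P2, P7 and P16 in mature neurons, and at 46.4, 244, 171 and 399 TPM in progenitors at P3, P7, P9 and P16. Hba-a2 stood at 152, 162 and 1201 TPM in mature neurons, and at 67.8, 275, 150 and 407 TPM in progenitors at the same ages. Hbb-bs, the more abundant β-globin gene, had 127, 156 and 1093 TPM in mature neurons and 65.2, 251, 173 and 465 TPM in progenitors. For these 3 genes the populations overlapped, with the P16 mature neuron library highest and the P3 progenitor library lowest of all 7. Hbb-bt had 13.2, 19.6 and 122 TPM in mature neurons and 12.2, 45.01, 26.3 and 84.0 TPM in progenitors, with the same highest and lowest libraries.

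**Figure D1:**
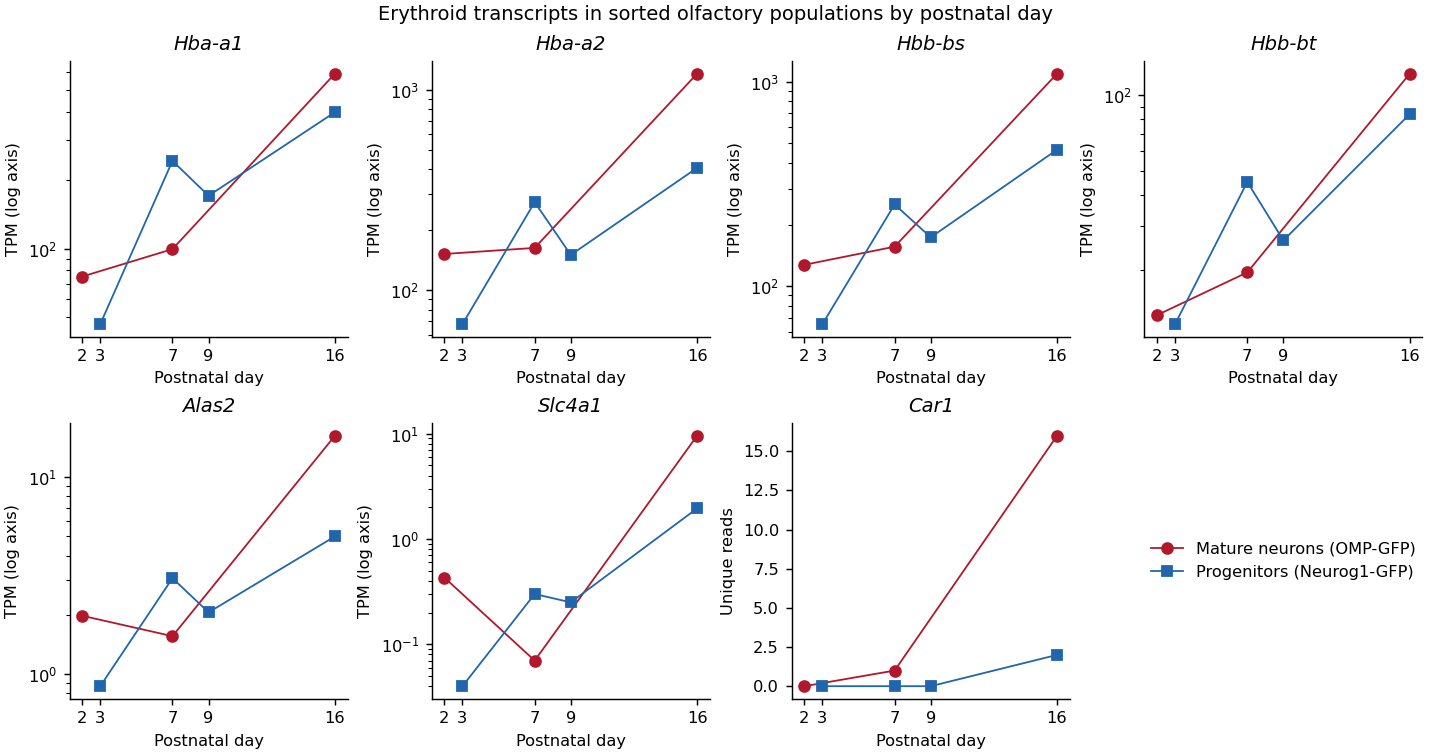
TPM on a log axis against postnatal day for 6 members, and unique reads on a linear axis for Car1, with 1 point per library; circles are mature neurons and squares are progenitors. Each member has its highest value of a population at P16, and the P7 progenitor library lies above the P9 one in the panels of the 4 globin genes, Alas2 and Slc4a1. For Slc4a1 the unique reads have the other order, with 12 at P7 and 15 at P9.

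Alas2 (chromosome X, 150547375 to 150570638, plus strand) followed the globins at a far lower level. It stood at 1.98, 1.56 and 16.2 TPM in mature neurons and at 0.87, 3.07, 2.06 and 5.0 TPM in progenitors. Its P16 level was 8.18 times that of P2 in mature neurons and 5.75 times that of P3 in progenitors. The gene overlaps Apex2 on the opposite strand. As the strand setting of the counting is not given in the sources used here, reads of the 2 genes may be mixed.

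Slc4a1 (chromosome 11, 102348824 to 102366203, minus strand) was close to absent before P16. It had 7, 5 and 510 unique reads at P2, P7 and P16 in mature neurons, and 3, 12, 15 and 145 in progenitors at P3, P7, P9 and P16. In TPM these were 0.43, 0.07 and 9.55 in mature neurons and 0.04, 0.30, 0.25 and 1.95 in progenitors. The P2 value rests on 7 reads and is 6.14 TPM per 100 reads, against 1.33 to 2.5 in the other 6 libraries, so the TPM scale is unsteady for this gene at low counts.

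Car1 (chromosome 3, 14766216 to 14808368, minus strand) was the weakest member. It had 0, 1 and 16 unique reads in mature neurons and 0, 0, 0 and 2 in progenitors. A count of 0 allows up to 0.124 CPM (reads scaled to library size, at 3 reads of the library total, counting error only) in the P2 mature neuron library and 0.116 to 0.122 in the 3 progenitor libraries without a read. Car1 did not pass the filter on low counts and was not tested in the main fits.

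A shared age slope was fitted to both populations, as log2 change for each doubling of the postnatal day. It asks whether a gene changes with age after population is accounted for. Hba-a1 had a slope of 1.08 (SE 0.18), Hbb-bs of 1.03 (SE 0.18), Hbb-bt of 1.03 (SE 0.19), Hba-a2 of 0.92 (SE 0.22) and Alas2 of 1.002 (SE 0.23). A slope of 1 means that the level doubles when the age doubles. Slc4a1 had a slope of 2.64 (SE 0.42). The median slope over all 17975 tested genes was -0.0028.

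None of the 6 tested members passed the threshold of the age slope, and none of the other genes did. The edgeR quasi-likelihood adjusted p was 0.0586 for Hba-a1, Hbb-bs, Hbb-bt and Slc4a1, 0.0785 for Alas2 and 0.0842 for Hba-a2, and 0.0586 was also the smallest adjusted p of all genes. The share of genes called with a positive slope was therefore 0%. At an unadjusted p under 0.05 all 6 members had a positive slope, against 9.64% of all tested genes. DESeq2 called all 6 higher with age, against 3.66% of all genes. edgeR without the filter on low counts called all 7, Car1 included, against 0.963%.

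On log2(TPM + 1), where limma was used, the slopes were 1.05 for Hba-a1, 1.02 for Hbb-bs, 0.999 for Hbb-bt, 0.95 for Hba-a2, 0.75 for Slc4a1 and 0.72 for Alas2. The pseudocount understates the change of the last 2, which are low. The limma adjusted p lay between 0.0945 and 0.208, and 0% of all genes were called. All 6 had an unadjusted p under 0.05, against 7.73% of all genes with a positive slope. All 6 members at a mean TPM of at least 1 had the highest TPM of their population at P16 in both populations, against 10.8% of 16869 genes. Slc4a1 reached that mean only through the P16 mature neuron library (9.55 TPM, against 1.95 TPM or less elsewhere). Its place in this count was therefore set in part by the filter. Without both P16 libraries, a choice made after the data were seen, the edgeR slopes were between 0.27 for Alas2 and 0.77 for Hba-a1, with an adjusted p of at least 0.69. Without the P16 mature neuron library the slope of Hba-a2 was 0.54 and that of Alas2 0.57, the edgeR adjusted p of the 6 lay between 0.254 and 0.4695, and 4 of 6 had an unadjusted p under 0.05, against 4.82% of all genes with a positive slope. Without the P7 mature neuron library edgeR called all 6 (adjusted p between 0.0061 and 0.0294), against 1.99% of all genes, and limma likewise called all 6, against 0.645%.

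The 2 populations were also compared in slope. The slope in mature neurons minus that in progenitors was between -0.21 (Hba-a1) and 0.14 (Hba-a2) over the 6 members, with standard errors between 0.38 and 1.17. None was called (edgeR adjusted p of at least 0.936), nor was any other gene, and no member had an unadjusted p under 0.05, against 3.13% of all genes with a higher and 2.85% with a lower slope in mature neurons. That count rests on single libraries and turns with them. Without the P16 mature neuron library 4 of 6 members had a lower slope in mature neurons at an unadjusted p under 0.05 by edgeR, against 2.29% of all genes, and 3 of 5 did in TPM by limma, against 1.90%. Without the P2 mature neuron library 4 of 6 had a higher slope, against 4.33%, and 4 of 6 in TPM, against 3.05%. No member was called in these fits after adjustment. DESeq2 called 11 genes, none of them a member. For the 4 globin genes the standard errors of this difference lay between 0.38 and 0.51.

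**Figure D2:**
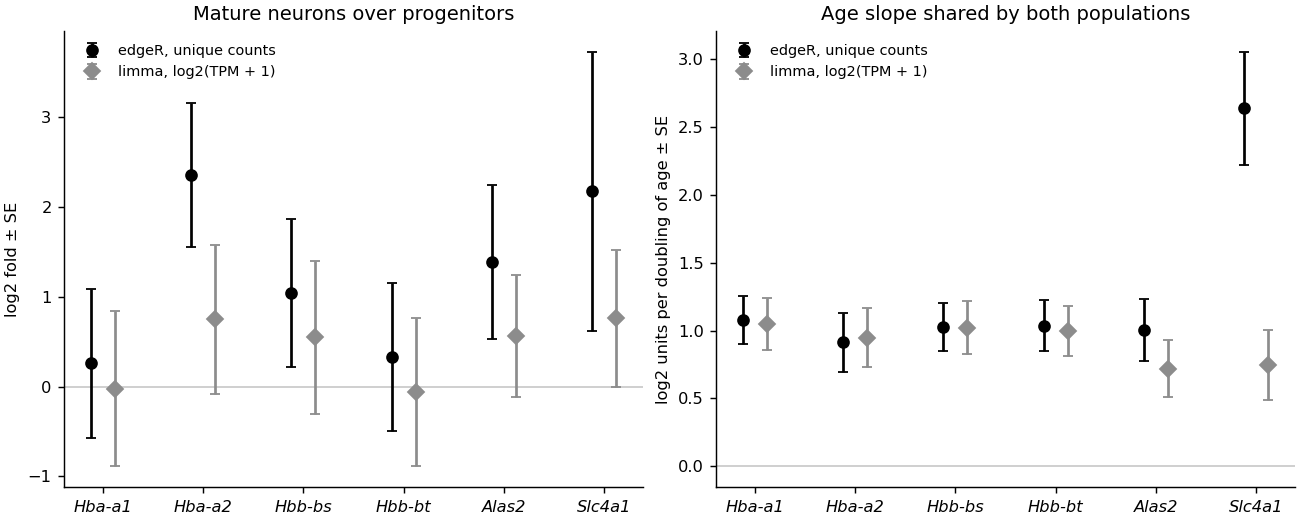
Left, log2 fold of mature neurons over progenitors; right, the age slope shared by both populations; points are fitted values for the 6 tested members and bars are 1 standard error, with circles for edgeR on unique counts and diamonds for limma on log2(TPM + 1). The slopes of the globin genes and Alas2 on counts lie between 0.92 and 1.08, and the population folds have errors of 0.80 or more on counts.

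Between the populations, 1 of the 6 tested members was called. Hba-a2 was higher in mature neurons, with 104, 121 and 777 unique reads in mature neurons and 26, 102, 42 and 125 in progenitors (log2 fold 2.35, SE 0.80, edgeR adjusted p = 0.0335). Of all tested genes 28.8% were called higher in mature neurons and 30.0% lower, so 1 of 6 is no more than that background. The other members had log2 folds of 0.26 (Hba-a1), 0.33 (Hbb-bt), 1.04 (Hbb-bs), 1.38 (Alas2) and 2.17 (Slc4a1), with standard errors of 0.83 to 1.55 and an edgeR adjusted p of at least 0.195. In TPM the fold of Hba-a2 was 0.75 (SE 0.83, limma adjusted p = 0.467), and none of the 6 was called, against 22.8% of all genes higher and 34.8% lower.

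The sign of the population folds rested on the P16 mature neuron library. At P16 the summed globin TPM of mature neurons was 2.22 times that of progenitors, and at P7 it was 0.537 times. Without the P16 mature neuron library the log2 folds were -1.28 for Hba-a1, -1.31 for Hbb-bt, -0.65 for Hbb-bs, -0.53 for Alas2 and -2.67 for Slc4a1, none of them called, and that of Hba-a2 was 0.77 (edgeR adjusted p = 0.247). Hba-a2 also fell short of the threshold without the P3 progenitor library (2.06, edgeR adjusted p = 0.0769), without the P7 one (2.56, 0.0550) and without the P9 one (2.15, 0.0827). With log2 of the day as a covariate 3 of the 6 were called higher in mature neurons, against 30.9% of all genes: Hba-a2 (2.28, edgeR adjusted p = 0.0029), Hbb-bs (1.05, 0.0393) and Alas2 (1.32, 0.0434).

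The share of α-globin in all globin RNA varied little between libraries. The α-globin pair made up 61.8%, 59.9% and 59.6% of globin TPM at P2, P7 and P16 in mature neurons, and 59.6%, 63.7%, 61.7% and 59.5% in progenitors at P3, P7, P9 and P16. The means were 60.4% ± 1.18 in mature neurons (SD, n = 3) and 61.1% ± 1.97 in progenitors (SD, n = 4; exact permutation p = 0.714, two-sided). Total globin TPM lay between 192 and 3007 in the same libraries.

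Within each pair the share of the members differed between the populations without overlap. These comparisons were chosen after the values had been seen. Hba-a2 made up 66.8%, 62.0% and 67.0% of α-globin TPM at P2, P7 and P16 in mature neurons, and 59.4%, 53.0%, 46.7% and 50.5% in progenitors at P3, P7, P9 and P16. In unique reads the shares were 43.0%, 37.5% and 40.6% in mature neurons and 20.5%, 16.6%, 10.1% and 12.5% in progenitors. The lowest 95% Wilson bound in mature neurons was 32.4% and the highest in progenitors 28.3%. The means in unique reads were 40.3% ± 2.77 in mature neurons (SD, n = 3) and 14.9% ± 4.57 in progenitors (SD, n = 4).

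Hbb-bt was the smaller partner of its pair in every library. It made up 9.43%, 11.2% and 10.02% of β-globin TPM in mature neurons and 15.8%, 15.2%, 13.2% and 15.3% in progenitors. In unique reads these shares were 11.4%, 12.4% and 11.5% in mature neurons and 18.5%, 18.1%, 15.6% and 17.9% in progenitors. In TPM the means were 10.2% ± 0.883 in mature neurons (SD, n = 3) and 14.9% ± 1.15 in progenitors (SD, n = 4). Mature neurons were thus lower in the share of Hbb-bt and higher in that of Hba-a2, at P7 and at P16 alike.

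The exact permutation p over samples (two-sided) was 0.0286 for the share of Hba-a2 in unique reads and for that of Hbb-bt on both scales, the smallest value that 3 libraries against 4 can give. It was 0.0571 for the share of Hba-a2 in TPM. Adjusted over the 7 ratios compared, these became 0.0667 and 0.1, which are above 0.05 (exact permutation tests). Each group has its own mouse line, and the part of line or strain in these shares was not tested. Read numbers bear on the call for Hba-a2 given above: 100 of its unique reads stood for 134 to 155 TPM in mature neurons and for 261 to 357 TPM in progenitors. For Hba-a1 the same ratio was 49.2 to 54.5 in mature neurons and 45.6 to 47.7 in progenitors.

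**Figure D3:**
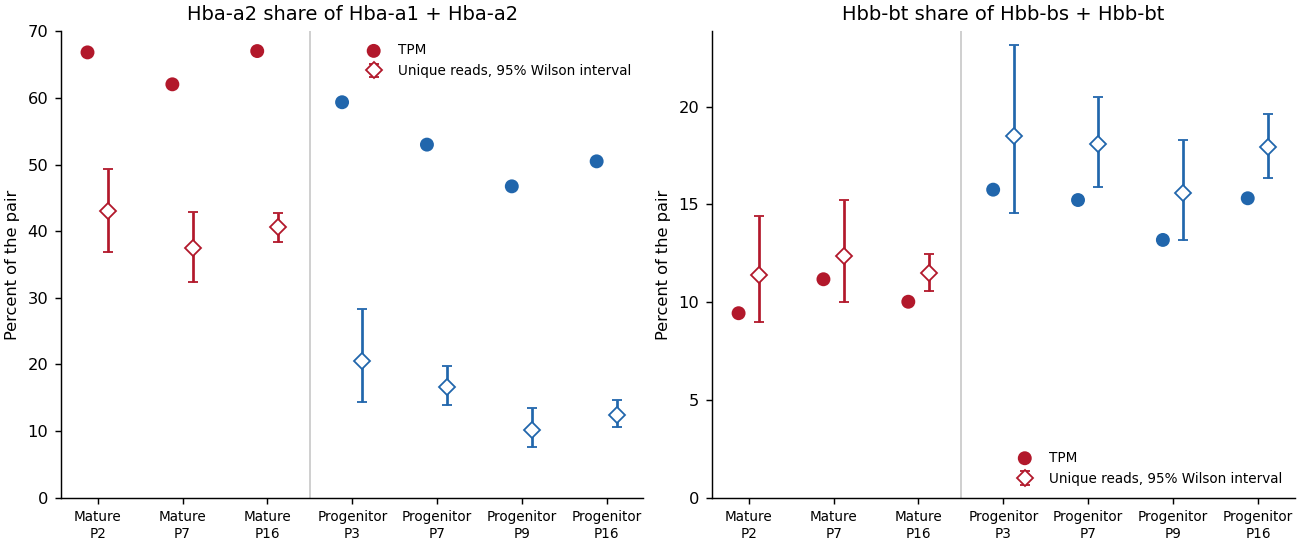
Share of Hba-a2 in the α-globin pair (left) and of Hbb-bt in the adult β-globin pair (right), in percent, for each library; filled circles are TPM, and open diamonds are unique reads with 95% Wilson intervals that cover counting error only. On each scale the 3 mature neuron libraries lie above all 4 progenitor libraries for Hba-a2 and below them for Hbb-bt.

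Set against the β-globin reads of the same library, Alas2 and Slc4a1 were compared separately. Per 1000 unique reads of Hbb-bs there were 124, 85.5 and 126 of Alas2 at P2, P7 and P16 in mature neurons, and 109, 101, 93.7 and 90.4 in progenitors at P3, P7, P9 and P16. Over these libraries Hbb-bs itself ranged between 256 and 3831 reads. For Slc4a1 the ratio was 15.0, 9.29 and 133 in mature neurons and 11.7, 13.5, 22.7 and 83.0 in progenitors. Both P16 libraries stood above all 5 earlier ones. The populations overlapped in both ratios (exact permutation p = 0.343 for Alas2 and 0.657 for Slc4a1, two-sided).

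**Figure D4:**
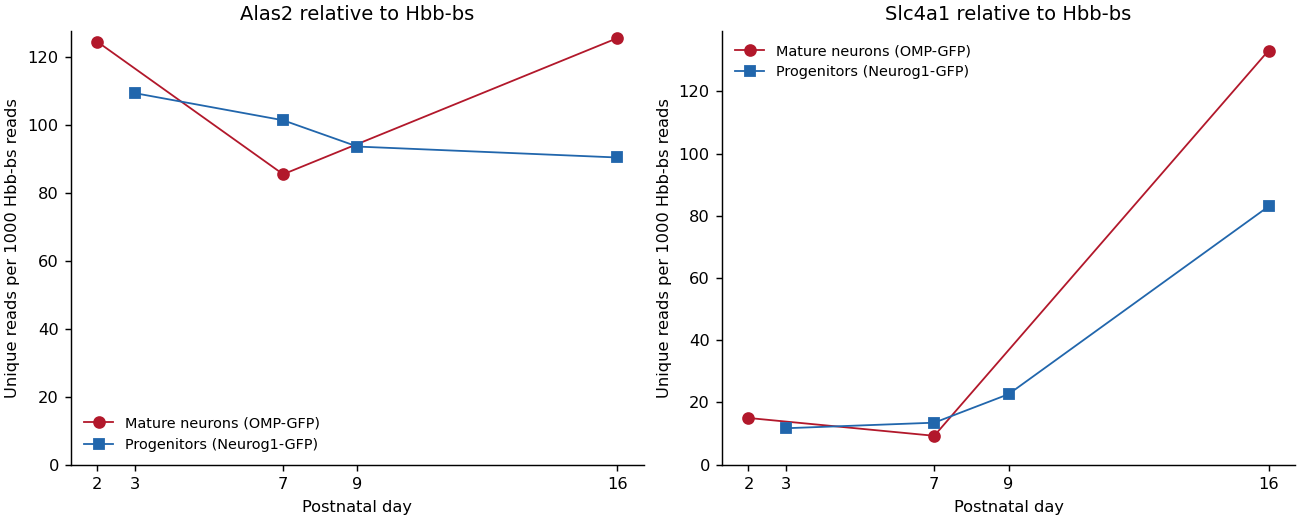
Unique reads of Alas2 (left) and Slc4a1 (right) per 1000 unique reads of Hbb-bs against postnatal day, with 1 point per library; circles are mature neurons and squares are progenitors. Alas2 lies between 85.5 and 126 throughout, while Slc4a1 lies at 22.7 or lower before P16 and at 133 and 83.0 at P16.

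Proximal promoter sequences were available from RefSeq (GRCm38.p6) for 5 members. The 150 bases before the RefSeq start are shown for 4 of them, since the levels of these genes ran in parallel across the libraries. That of Hba-a2 shares an unbroken run of 147 bases with that of Hba-a1, shifted by 3 bases. Capitals mark matches, on either strand, to CACCC (the core bound by the erythroid factor Klf1), GATAA (bound by Gata1), CCAAT and TATAA (the core of a TATA box).
Hba-a1: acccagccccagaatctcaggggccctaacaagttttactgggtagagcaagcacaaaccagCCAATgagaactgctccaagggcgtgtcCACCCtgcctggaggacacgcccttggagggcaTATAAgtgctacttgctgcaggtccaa
Hbb-bs: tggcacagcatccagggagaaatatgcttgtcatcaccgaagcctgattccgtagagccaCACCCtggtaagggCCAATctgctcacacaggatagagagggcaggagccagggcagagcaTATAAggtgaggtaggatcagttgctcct
Hbb-bt: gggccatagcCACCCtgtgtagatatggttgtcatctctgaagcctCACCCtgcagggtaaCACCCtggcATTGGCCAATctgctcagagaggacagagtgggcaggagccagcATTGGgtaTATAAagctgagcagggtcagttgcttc
Alas2: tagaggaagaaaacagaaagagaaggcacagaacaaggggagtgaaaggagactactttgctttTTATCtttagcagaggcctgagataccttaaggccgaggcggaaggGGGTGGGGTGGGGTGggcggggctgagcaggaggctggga
These stretches lie at chr11:32283522-32283671 (plus strand), chr7:103827929-103828078 (minus), chr7:103813924-103814073 (minus) and chrX:150547267-150547416 (plus). GENCODE starts each of these genes upstream of the RefSeq start. CACCC occurs in all 5 members and in 37.4% of 32851 promoter windows of the same length. CCAAT and TATAA occur in the 4 globin genes, and in 24.5% and 14.2% of all windows. GATAA occurs in Alas2 only among the 5, and in 13.3% of all windows. In Hbb-bt a CCAAT match on the minus strand lies directly beside one on the plus strand, and the 3 CACCC matches of Alas2 follow each other. These matches are a description and were not tested against the levels.

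The rest of the adult red cell program was compared through lists chosen with earlier results of these data known. Among 15 genes of the red cell membrane and skeleton other than Slc4a1, 10 passed the count filter. Of the 15 genes, 5 reached a mean TPM of 1, the limit for the 10.8% background given above. Of the same 15 genes, 8 had their highest TPM of a population at P16 in both. Others ran the other way: Tmod1, an actin-capping protein, stood at 19.6, 17.4 and 8.88 TPM in mature neurons and at 14.9, 15.2, 15.7 and 9.21 TPM in progenitors. Epb42 and Rhag had at most 1 read in each library before P16. Epb42, which encodes a protein of the membrane skeleton, had 0, 1 and 42 reads at P2, P7 and P16 in mature neurons, and 1, 1, 1 and 14 in progenitors at P3, P7, P9 and P16. Rhag, a membrane protein of the Rh complex, had 0, 0 and 26 reads in mature neurons and 0, 1, 0 and 13 in progenitors. Like Slc4a1, these were higher at P16 than at all earlier ages in both populations. These genes were singled out after their values were seen.

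Between the populations 3 of the 10 tested membrane genes were called (edgeR), against 28.8% of all genes higher and 30.0% lower in mature neurons. Ank1, an ankyrin, was higher in mature neurons (log2 fold 2.55), as was Dmtn, the actin-bundling protein dematin (0.89). Epb41, which encodes protein 4.1, was lower (-2.45). Against age edgeR called none of the 10, nor any other gene. At an unadjusted p under 0.05 Tmod1 had a negative slope and 5 genes a positive one, against 9.64% of all genes with a positive slope.

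Most regulators of erythroid cells were at the edge of detection before P16. Of 11 listed genes 3 passed the count filter, and none was called for population or age (edgeR). For age edgeR called no gene at all. Lmo2, a transcriptional cofactor, was the exception in level, at 60.5 to 64.8 TPM in mature neurons and 66.2 to 85.7 TPM in progenitors. Gata1, the master regulator of the lineage, was listed at 0.03, 0 and 0.34 TPM in mature neurons and at 0.03, 0.04, 0 and 0.10 TPM in progenitors. Klf1, the erythroid activator of adult β-globin, stood at 0.13, 0.04 and 0.72 TPM in mature neurons and at 0.52, 0.48, 0.25 and 0.91 TPM in progenitors. Hemgn had 1, 1 and 69 reads in mature neurons and 0, 2, 2 and 12 in progenitors, and Trim10 had 2, 2 and 56 and 2, 1, 2 and 13. In all, 8 of the 11 had their highest TPM of a population at P16 in both. Only 2 of the 11 reached the mean TPM of 1 that the 10.8% background given above asks for. Gata1, Klf1, Hemgn and Trim10 were named after their values were seen.

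Heme enzymes other than Alas2 were expressed in all libraries and did not follow the globins. The summed TPM of the 8 genes was 401, 380 and 413 in mature neurons and 400, 396, 429 and 374 in progenitors. Alas1, the general counterpart of Alas2, stood at 87.2 to 95.6 TPM in mature neurons and 87.0 to 126 TPM in progenitors. Between the populations 2 of the 8 were higher in mature neurons and 1 was lower (edgeR), against 28.8% and 30.0% of all genes. Ppox had a log2 fold of 1.08 and Fech, which inserts iron into the ring, one of 0.76, while Alad had one of -1.12. None of the 8 was called for age (edgeR), nor was any other gene. The median slope of the 8 was 0.0045.

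Iron handling and red cell cytosol genes were not called for age (edgeR), but neither was any other gene, the members included. At an unadjusted edgeR p under 0.05, 2 of 8 tested iron and 3 of 10 cytosol genes had a slope of either sign. Of all 17975 tested genes 1733 rose and 2013 fell at that limit. Among the 8 tested iron genes mature neurons had 4 with higher and 3 with lower levels (edgeR). The ferritin chain genes moved in opposite directions, with Fth1 at a log2 fold of 0.68 and Ftl1 at -1.13. Of 10 cytosolic and reticulocyte genes 2 were higher and 2 lower. Car2, a carbonic anhydrase found in many cells, stood at 161 ± 31.8 TPM in mature neurons (SD, n = 3) and at 37.8 ± 10.7 TPM in progenitors (SD, n = 4; log2 fold 2.21), in contrast to Car1. Prdx2, a peroxiredoxin, had a log2 fold of -0.94. Among genes of heme breakdown 3 of 4 were higher in mature neurons, including Hmox2 (0.32) and the hemoglobin-binding plasma protein gene Hp (3.37). Of all tested genes 28.8% were higher and 30.0% lower, which is the background of the counts for these 3 lists.

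The other genes of the globin clusters were close to absent. Hbb-y, an embryonic β-type globin, had the highest mean TPM over the libraries of 6 genes, at 1.10, 1.13 and 0.21 TPM in mature neurons and at 2.65, 0.45, 0.42 and 0.31 TPM in progenitors. It was lower at P16 than at every earlier age in both populations, the opposite order to the adult genes. Its reads numbered 9, 10 and 2 in mature neurons and 26, 4, 4 and 3 in progenitors, too few for the main test. Hbb-bh1, the next gene by mean TPM, was instead highest at P16 in both populations, on at most 4 reads in a library. It stood at 0, 0 and 0.33 TPM in mature neurons and at 0.11, 0.35, 0.33 and 0.43 TPM in progenitors. Hba-x, the embryonic α-type gene, was listed at 0 in every library. Among globins of other tissues, Ngb (neuroglobin) was at 0.32 TPM or less in all libraries, and Mb (myoglobin) was lower in mature neurons, at 1.33 ± 0.591 TPM (SD, n = 3) and at 7.16 ± 0.419 TPM in progenitors (SD, n = 4; log2 fold -2.13).

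Markers of other blood cells also stood highest at P16, in part of the lists. The 6 neutrophil markers summed to 63.0, 17.6 and 423 TPM at P2, P7 and P16 in mature neurons, and to 20.7, 16.7, 11.6 and 59.4 TPM in progenitors at P3, P7, P9 and P16. S100a9 alone stood at 4.01, 1.85 and 175 TPM in mature neurons and at 6.05, 2.11, 0.91 and 19.0 TPM in progenitors. Ltf made up most of the neutrophil sums at P2 and P7 in mature neurons and was not highest at P16 there. It stood at 54.6, 14.75 and 50.2 TPM in mature neurons and at 11.4, 12.4, 9.73 and 12.6 TPM in progenitors. The 12 macrophage and general leukocyte markers summed to 54.3, 38.7 and 170 TPM in mature neurons and to 14.1, 20.0, 16.5 and 42.2 TPM in progenitors. Of the 2 lists 5 of 6 and 11 of 12 genes had their highest TPM at P16 in both populations, against 7 of 7 erythroid members. Of all genes at a mean TPM of at least 1, 10.8% did. Car1 and Ptprc did not reach that mean. Like Slc4a1, the neutrophil genes Ngp, Camp and Retnlg reached it only through P16, with 0.83 TPM or less at all earlier ages. Their place in this count was therefore set in part by the filter. Between the populations 9 of 11 tested macrophage and leukocyte genes and 1 of 4 neutrophil genes, Ltf, were higher in mature neurons (edgeR). Of all tested genes 28.8% were. None of these 15 was called for age (edgeR), nor was any other gene. The slopes of all 11 leukocyte genes and of 3 of the 4 neutrophil genes were positive, with medians of 0.527 and 1.54. At an unadjusted edgeR p under 0.05, 7 of the 11 and 3 of the 4 had a positive slope, against 9.64% of all tested genes. The part of such cells in the hemoglobin levels was not tested.

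Other lists shared this order in part. The lymphocyte sum was highest at P16 in both populations, the platelet sum in mature neurons and the endothelial sum in neither. By gene, 2 of 6 lymphocyte, 3 of 8 platelet and 3 of 9 endothelial markers had their highest TPM at P16 in both populations. The 10.8% background covers genes at a mean TPM of at least 1, which few of these markers reached. Pecam1 and Egfl7 made up most of the endothelial sum. The 9 endothelial markers summed to 10.6, 6.79 and 8.95 TPM in mature neurons and to 13.1, 12.6, 12.2 and 10.4 TPM in progenitors. The 8 platelet markers summed to 8.05, 8.07 and 11.7 TPM in mature neurons and to 5.24, 6.63, 7.74 and 5.73 TPM in progenitors. The 6 lymphocyte markers summed to 0.36, 0.30 and 5.66 TPM in mature neurons and to 1.60, 2.75, 2.04 and 3.61 TPM in progenitors. The defining T cell marker Cd3e was at 0.13 TPM or less throughout. The P7 progenitor library, which stood above the P9 one in globin, also stood above it in the neutrophil, leukocyte, lymphocyte and endothelial sums, and below it in the platelet sum. Their part in the globin levels of these libraries was not tested.

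**Figure D5:**
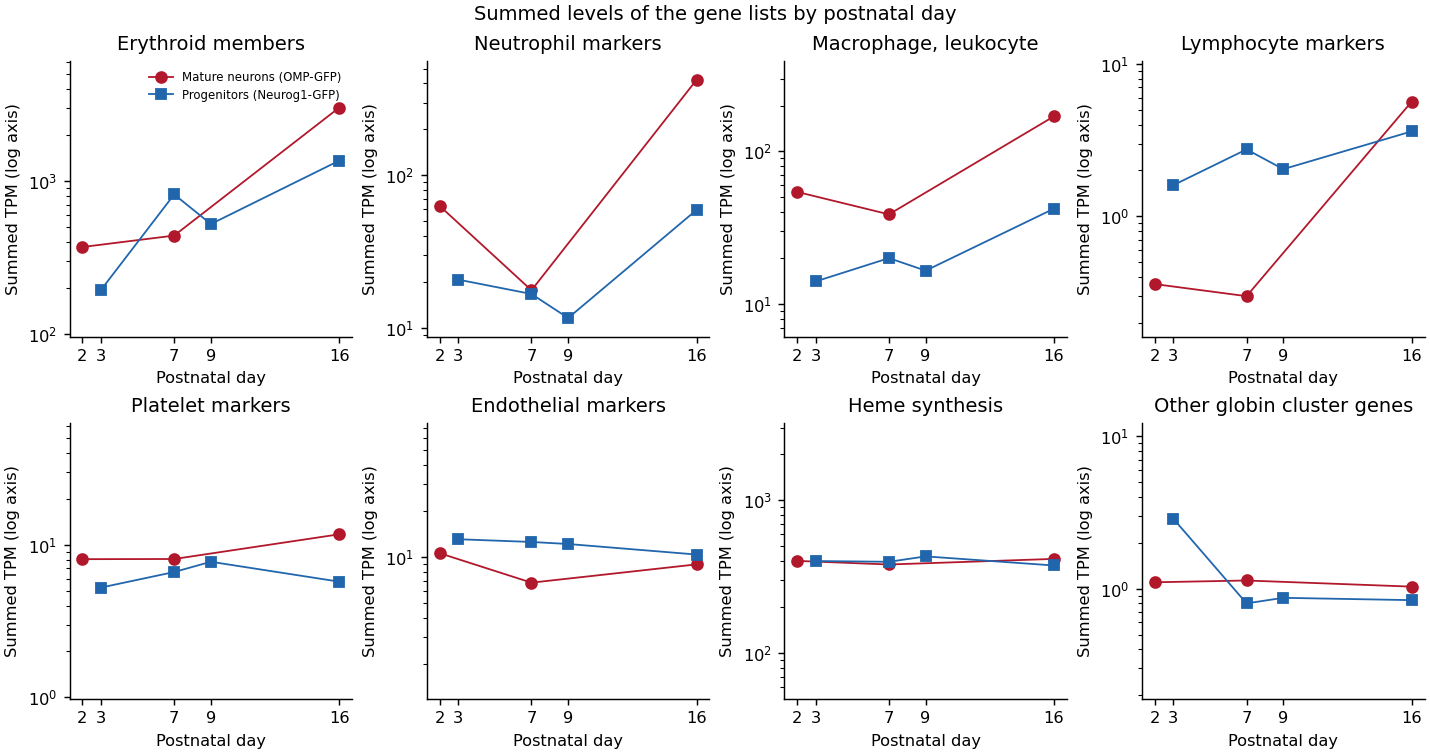
Summed TPM of 8 gene lists against postnatal day, with 1 point per library; every panel has a log axis spanning the same 64-fold range, circles are mature neurons and squares are progenitors. Erythroid, neutrophil, leukocyte and lymphocyte sums are highest at P16 in both populations, whereas heme synthesis genes stay between 374 and 429.

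The genes whose profile over the 7 libraries was nearest to that of summed globin were found among 12860 genes whose mean TPM reached 1. The measure was the root mean square distance between centred log2(TPM + 1) profiles, whose median over all these genes was 1.27. The nearest was Spp1, which encodes the secreted phosphoprotein osteopontin, at a distance of 0.399, with 4.75, 4.35 and 57.0 TPM in mature neurons and 3.76, 7.55, 5.44 and 22.3 TPM in progenitors. It was followed by the matrix protein gene Sparc (0.464), the immunoglobulin heavy chain gene Ighm (0.496), the collagen gene Col1a2 (0.518), the lipoprotein gene Apoe (0.530) and the eosinophil granule protein gene Prg2 (0.536). Ighm and Prg2 reached a mean TPM of 1 only through P16, with at most 0.63 and 0.41 TPM at all earlier ages. Their place among the nearest genes was therefore set in part by the filter. The members lay at 0.071 for Hbb-bs, which dominates the sum with the α-globin genes, 0.364 for Alas2 and 0.548 for Slc4a1.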

How the data were processed

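RNA from sorted cells was sequenced as stranded poly(A) libraries, per the labels' protocols. The authors deposited a table of RSEM TPM values, scaled for transcript length, and a table of raw read counts per gene with multi-mapping reads in a row of their own. Named in the submitters' processing notes are mm10, RSEM, STAR 2.6.1c and bcl2fastq 2.18. The labels give neither the annotation release nor the strand setting of the counting. Rows that name no gene held 23.5% to 27.2% of the counts (multi-mapping reads alone 11.9% to 13.9%) and entered neither library sizes nor tests.

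Counts were tested with edgeR 4.0.16 (TMM, filterByExpr, quasi-likelihood), with DESeq2 1.42.0 as an alternative, and log2(TPM + 1) of genes at a mean TPM of at least 1 with limma 3.58.1 (trend). P-values were adjusted over all tested genes by Benjamini-Hochberg at a threshold of 0.05. The standard errors given for edgeR were derived, as the absolute log2 value divided by the square root of the quasi-likelihood F statistic. The edgeR script was checked on simulated counts. Shares and ratios were compared by exact permutation tests over 35 splits. Intervals and floors cover counting error only. Alternatives were the other tool, filter, pseudocount (0.1) and unit, each library left out, age as a covariate or block, and both P16 libraries left out. Gene models came from GENCODE M21, which held 99.8% of the gene IDs.

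Members and gene lists were chosen with earlier results of these data known. Named were all members, up to 4 called genes per list by smallest p, the 2 genes of highest mean TPM per list, and the 6 genes most like summed globin, leaving out predicted, pseudogene and olfactory receptor names. Epb42, Rhag, Gata1, Klf1, Hemgn, Trim10, Cd3e, Ngb, Tmod1, Hba-x, Ptprc, Ngp, Camp and Retnlg fall outside this rule. They were chosen after their values were seen, as were the promoter motifs. Some listed genes are not reported here.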

Additional observations from a re-analysis of the deposited data

Results flagged for a closer look

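In 4 of 28 groups of 4 progenitor libraries, 1 library stood far from the other 3, by a gap past Dixon's 95% critical value for the share of the whole range. Chance marks about 1 in 20 groups when the 4 values come from 1 distribution. Here each library has its own age, and Slc4a1 enters both as a level and as a ratio. That rate therefore does not carry over to these groups. The P16 progenitor library stood apart for Slc4a1 at 1.95 TPM (gap 0.864 of the range), for Car1 at 0.11 TPM (gap 1.0, the other 3 at 0) and for Slc4a1 reads per 1000 Hbb-bs reads at 83.0 (gap 0.847). The P3 progenitor library stood apart for the summed TPM of the 6 other genes of the globin clusters at 2.88 (gap 0.966), of which Hbb-y made up 2.65. Groups of 3 mature neuron libraries were not examined in this way.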

How the results depend on the processing

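For age, where edgeR called 0 of 6 members and 0 genes, DESeq2 called 6 members among 658 genes with a positive and 865 with a negative slope, and edgeR without the count filter called 7 among 315 and 455. Leaving out 1 library gave 0 to 6 members and 0 to 367 genes with a positive and 0 to 619 with a negative slope on counts, and 0 to 6 members, 0 to 109 and 0 to 158 genes in TPM. For the difference of slopes, DESeq2 called 7 genes with a higher and 4 with a lower slope in mature neurons. With 1 library left out the counts were 0 to 1 and 0 to 2 genes, and in TPM also 0 to 1 and 0 to 2. The cause was not tested. The age slopes of the 6 tested members stayed positive in the edgeR and DESeq2 alternatives on counts and in the limma fit to all 7 libraries.

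Between populations, 1 member was called on counts, 0 with limma, 3 with the day as a covariate, 0 without both P16 libraries and 0 to 1 with 1 library left out. With 1 library left out, log2 folds ran between -1.29 and 0.75 for Hba-a1 (-1.285 without the P16 mature neuron and -0.079 without the P3 progenitor library), -1.31 and 0.92 for Hbb-bt, -0.65 and 1.59 for Hbb-bs, -0.53 and 1.87 for Alas2, -2.67 and 4.29 for Slc4a1, and 0.77 and 2.78 for Hba-a2. Folds of opposite sign to the edgeR value were -0.023 (Hba-a1) and -0.060 (Hbb-bt) with limma, and, without both P16 libraries, -0.78 (Hba-a1), -0.10 (Hbb-bs), -0.72 (Hbb-bt), -0.042 (Alas2) and -0.56 (Slc4a1). DESeq2 gave Slc4a1 no adjusted p for population. Over all alternatives the adjusted p of Hba-a2 ran between 0.0029 and 0.467. The labels carry no replicate numbers. In the P7 and P16 libraries alone, with age as a replicate block, Hba-a1 was at -0.25, Hbb-bt at -0.25 and Hba-a2 at 1.68 (edgeR adjusted p = 0.039).

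The log2 ratio of mean summed globin TPM was 0.82, and between -0.84 and 1.32 with 1 library left out. The difference in the share of Hba-a2, mature neurons minus progenitors, was 12.9 percentage points in TPM (11.03 to 15.2 with 1 library left out) and 25.4 in unique reads. For Hbb-bt it was -4.66 (-5.22 to -4.27) and -5.76.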
